A study of Graphilbum sp. with 6 samples.

Results

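Nucleotides and enzyme cofactors are made by long chains of enzymes that growing hyphae draw on for RNA, DNA, energy transfer and redox reactions. Purine and pyrimidine nucleotides carry a phosphoribosyl group. Thiamine, riboflavin, vitamin B6, folate, biotin, lipoate, heme and the molybdenum cofactor are small molecules that many enzymes need in order to work. Filamentous fungi make most of these compounds themselves and can also import some of them. The features described here are 44 assembled transcripts, from libraries of Graphilbum sp. mycelium, whose best-hit description names such a compound or step. A best hit marks similarity and does not show the organism of origin. They were taken by 19 keywords from the 4613 features, of 26694 in the deposited table, whose best hit lies in Sporothrix, Grosmannia, Ophiostoma or Esteya, genera of the order Ophiostomatales to which Graphilbum belongs. The keywords act on the descriptions and not on measured values, but they were chosen with earlier results of these data known.

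In the nematode group, hyphae were exposed to Bursaphelenchus xylophilus, the pine wilt nematode, which feeds on fungal hyphae: about 300 animals were added for 24 h, and 3 libraries were made. The control group, labelled 24 h with no mention of nematodes, also has 3 libraries. Mycelium of both groups came from potato dextrose agar plates (28 °C, 5 days) and was washed in phosphate-buffered saline. The study asked what the presence of the nematode does to gene expression in the fungus. The labels name no strain, do not describe how the controls were handled, and do not say what made the replicates separate, so p-values measure the spread between these libraries, which may be technical.

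The table gives TPM, a length-scaled share of all transcripts in a library, and gives no read depth. The share of TPM held by Ophiostomatales-hit features was 28.7% to 39.4% in the nematode libraries, against 68.5% to 70.0% in the controls. Each library was therefore divided by the median ratio of that class, and all further values are rescaled TPM unless said otherwise, which compare these features with the rest of their class. In TPM as deposited the class median of the log2 fold changes was -0.82, a shift of -0.79, so higher and lower are relative to the class. Control replicate 3 stood apart: its features lay a median of 0.24 from the control mean on the log2 scale, against 0.11 and 0.14 in control replicates 1 and 2 and 0.08 to 0.10 in the nematode libraries. Of the fungal hyphae markers, chitin synthase matched 3 features, 2 of them with an Ophiostomatales best hit. The summed TPM of the 3 as deposited was 126.6 to 255.7 with nematodes and 178.9 to 231.1 in controls. Glucan synthase, hydrophobin and Woronin body descriptions were listed at 0 in the nematode libraries and had no Ophiostomatales best hit. In control replicates 1 to 3, glucan synthase had 2.97, 0 and 0 TPM as deposited and hydrophobin 0.91, 11.4 and 0. Woronin body had 6.07, 4.77 and 0.17 TPM there. Of the 3 spore marker words, conidiation matched no description, a conidiophore description had 45.3 to 68.9 TPM with nematodes and 117.6 to 125.0 TPM in controls, and a spore germination description had 14.9 to 35.4 TPM with nematodes and 17.6 to 141.3 TPM in controls, with control replicate 3 the lowest. The part of spores in the results was not tested. None of the 4 nematode marker words matched a description. As matching rests on the best-hit descriptions alone, this does not show that nematode RNA was absent.

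Synthesis enzymes make up only part of the 44 features. By their descriptions, 30 carried out a synthesis, interconversion or salvage step, 8 were pantothenate transporters of the cell membrane, and the other 6 used, bound, moved or attached a cofactor. Best hits lay in Grosmannia for 20, Sporothrix for 18 and Ophiostoma for 6. The keywords for coenzyme A biosynthesis, IMP dehydrogenase, orotidine and thymidylate matched 0 features of the class. Mean rescaled TPM over the 6 libraries ran from 1.06 for a pantothenate transporter to 2869 for a methylenetetrahydrofolate reductase, and 0 of the 44 features were at 0 in any library. The filter of at least 1 rescaled TPM in at least 3 libraries passed 43 of the 44 features. The exception was the pantothenate transporter liz1 feature TRINITY_DN10071_c0_g2, with 0.923, 2.43 and 0.679 rescaled TPM with nematodes and 0.763, 1.24 and 0.299 in controls.

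**Figure D1:**
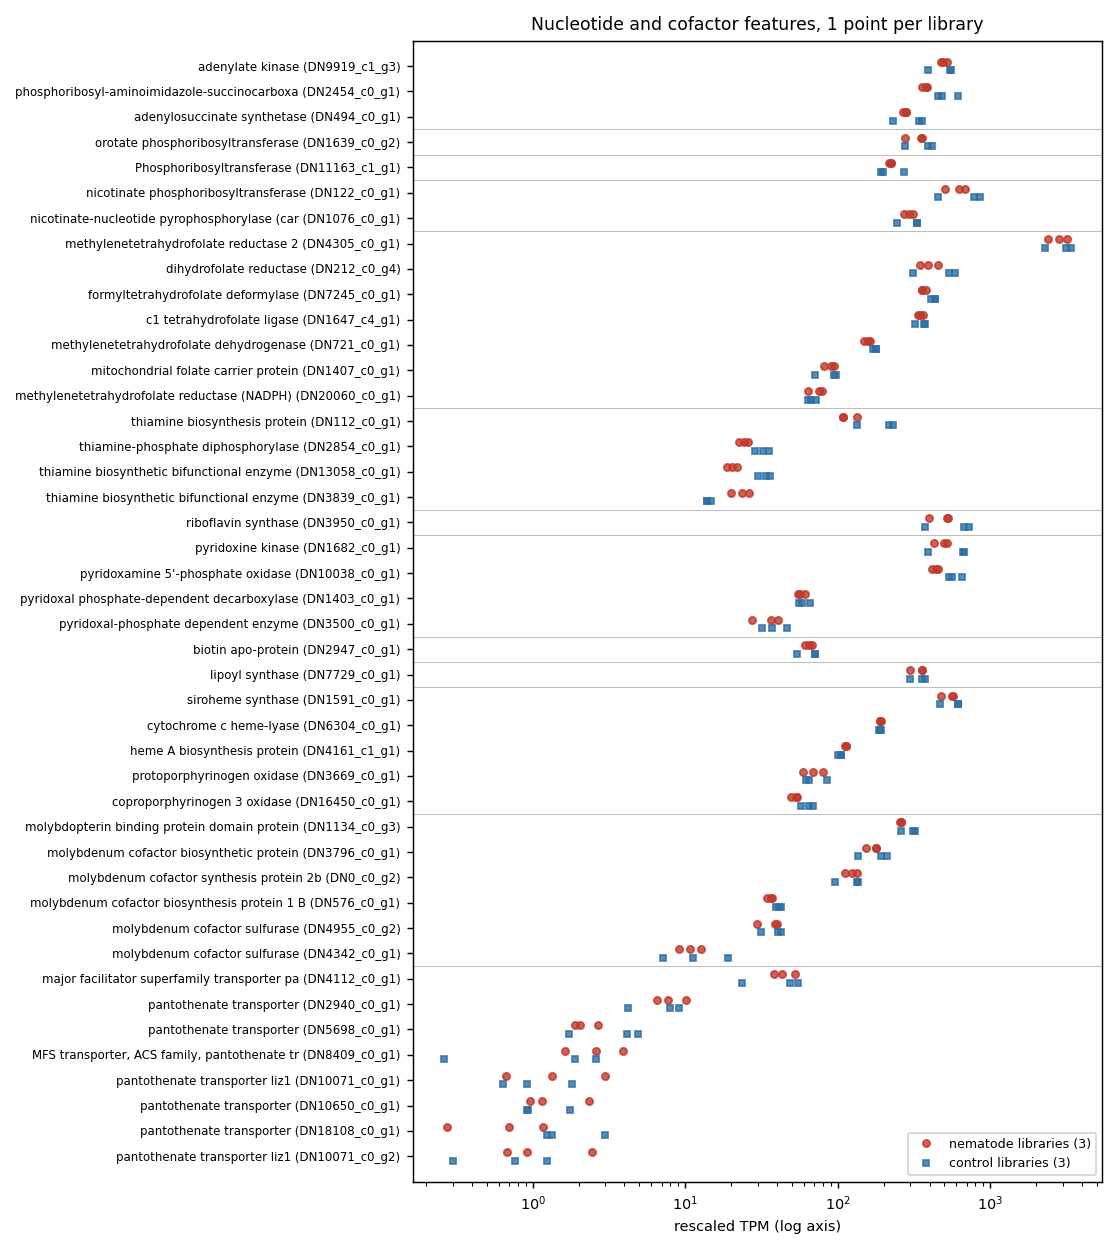
Rescaled TPM (log axis) of the 44 features in each of the 3 nematode libraries (red circles, upper of each row) and the 3 control libraries (blue squares, lower), grouped by pathway with lines between groups. Groups overlap in most rows, mean levels span from 1.06 to 2869, and the pantothenate transporters at the bottom are the lowest group.

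Relative to the rest of the class, the log2 fold changes of the nucleotide and cofactor features, nematode minus control on log2(rescaled TPM + 1), lay between -0.72 and 0.67. Above a mean of 10 rescaled TPM, the 3 log2 fold changes farthest from 0 belonged to thiamine synthesis, with 2 features lower (-0.69 and -0.68) and 1 higher (0.67, but -0.11 in TPM as deposited) with nematodes. Features of purine, folate, riboflavin, vitamin B6, heme and molybdenum cofactor metabolism had log2 fold changes of -0.46 to 0.12. None of the 43 features tested passed the threshold (0 higher and 0 lower, limma, Benjamini-Hochberg adjusted p under 0.05 over the 4568 class features tested). Over the class, 0.613% of features were called higher and 0.0438% lower. At an unadjusted p under 0.05, 1 of the 43 features was higher and 7 were lower, where the class had 7.07% higher and 3.74% lower. The median log2 fold change was -0.07, against -0.03 over the class, and 13 of the 43 values lay above 0, against 44.8% of those of the class. Every value lay within 1 of 0, between -0.72 and 0.67, as did 97.9% of the class, and for 37 of the 43 the whole 95% interval lay within 1 of 0, as for 85.7% of the class. A change of 2-fold on this scale was thus outside the interval of those 37 features. The log2 scale with an added 1 understates changes of the features near 1 rescaled TPM.

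**Figure D2:**
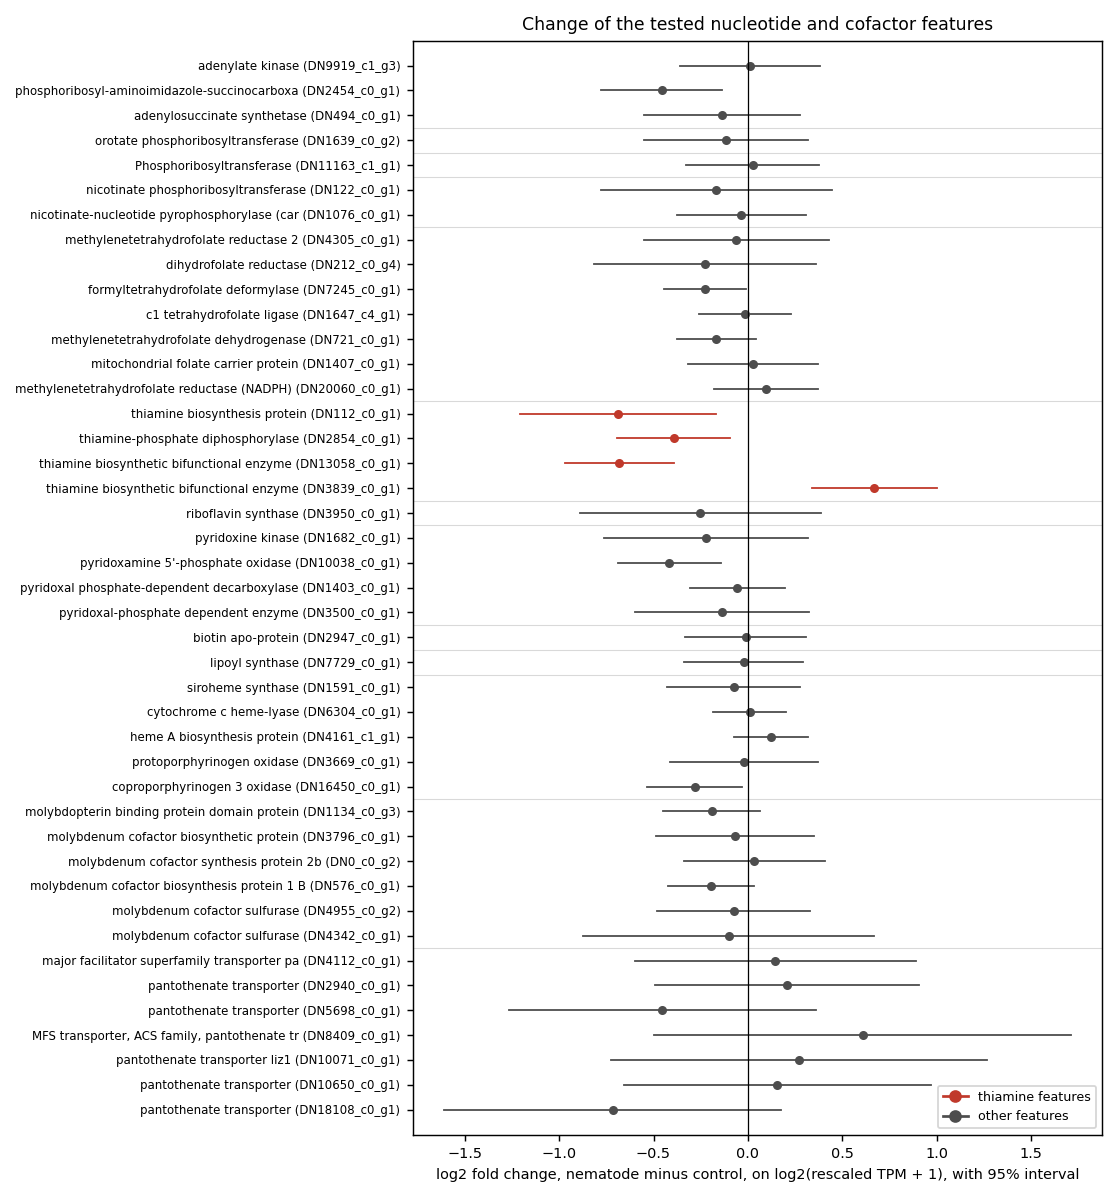
Log2 fold change (nematode minus control) with its 95% interval from limma for the 43 features tested, in the same order and with the thiamine features in red. The intervals of most features cross 0, and the thiamine features hold both negative values of -0.69, -0.68 and -0.39 and the positive value of 0.67 (-0.11 in TPM as deposited).

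The libraries of the 2 groups did not overlap for 12 features, 10 lower and 2 higher with nematodes (the 2 had negative log2 fold changes, -0.11 and -0.70, in TPM as deposited). Over the class, 7.79% of features were lower and 10.5% higher in this way. All 4 thiamine features were among the 12, with 3 lower and 1 higher. The other lower ones were single members of the purine, vitamin B6, heme, molybdenum cofactor and pantothenate transport groups and 2 of the folate group, and the other higher one belonged to heme.

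Thiamine, as its diphosphate, is the cofactor of pyruvate dehydrogenase, transketolase and related enzymes, and is built by joining a pyrimidine and a thiazole unit. The thiamine biosynthesis protein TRINITY_DN112_c0_g1, whose step the description does not give, was the most abundant of the 4, with 132.8, 108.7 and 108.9 rescaled TPM in nematode replicates 1 to 3 and 215.8, 231.2 and 133.4 in control replicates 1 to 3. All nematode libraries lay below all controls, but control replicate 3 was close to nematode replicate 1. Its log2 fold change was -0.69 ± 0.22 SE (limma adjusted p = 0.313). Thiamine-phosphate diphosphorylase (TRINITY_DN2854_c0_g1), which joins the pyrimidine and thiazole units, had 22.4, 24.3 and 25.8 rescaled TPM with nematodes and 32.2, 28.6 and 35.7 in controls. The nematode libraries were again the lower ones without overlap, with a log2 fold change of -0.39 ± 0.13 SE (limma adjusted p = 0.319).

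A pair of features shared the description thiamine biosynthetic bifunctional enzyme and the best-hit species Grosmannia clavigera, and they differed in direction relative to the class. In yeasts, an enzyme of this kind combines thiazole phosphorylation with the joining step. The feature TRINITY_DN13058_c0_g1 had 21.9, 18.9 and 20.3 rescaled TPM with nematodes and 33.7, 30.1 and 36.2 in controls. Every nematode library was lower than every control, control replicate 3 included, and the log2 fold change of -0.68 ± 0.12 SE had the smallest adjusted p of the 43 features (limma adjusted p = 0.0822, 95% interval -0.97 to -0.39). The feature TRINITY_DN3839_c0_g1 had 23.6, 20.0 and 26.4 rescaled TPM with nematodes and 13.9, 14.8 and 13.8 in controls. Here every nematode library was the higher one after rescaling, and the 3 controls lay close together, with a log2 fold change of 0.67 ± 0.14 SE (limma adjusted p = 0.130, 95% interval 0.34 to 1.00).

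Because both were measured in the same libraries, their ratio does not depend on the scaling. The ratio of TRINITY_DN13058_c0_g1 to TRINITY_DN3839_c0_g1 in deposited TPM was 0.928, 0.947 and 0.770 in nematode replicates 1 to 3, against 2.42, 2.03 and 2.62 in control replicates 1 to 3. The first feature was thus slightly the lower one of the pair in each nematode library and at least 2.03 times the second in each control. On the log2 scale the ratio averaged -0.19 ± 0.16 with nematodes and 1.23 ± 0.19 in controls (SD, n = 3 each), a difference of -1.42 (exact two-sided permutation p = 0.1, the smallest that 3 against 3 libraries allow). This pair was singled out after its values were seen. Its 2 features did not overlap between groups, in opposite directions, so this permutation p could take no other value. Whether the features of the pair are separate genes or pieces of 1 gene was not tested. The same holds for TRINITY_DN2854_c0_g1, whose description also names the joining step.

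**Figure D3:**
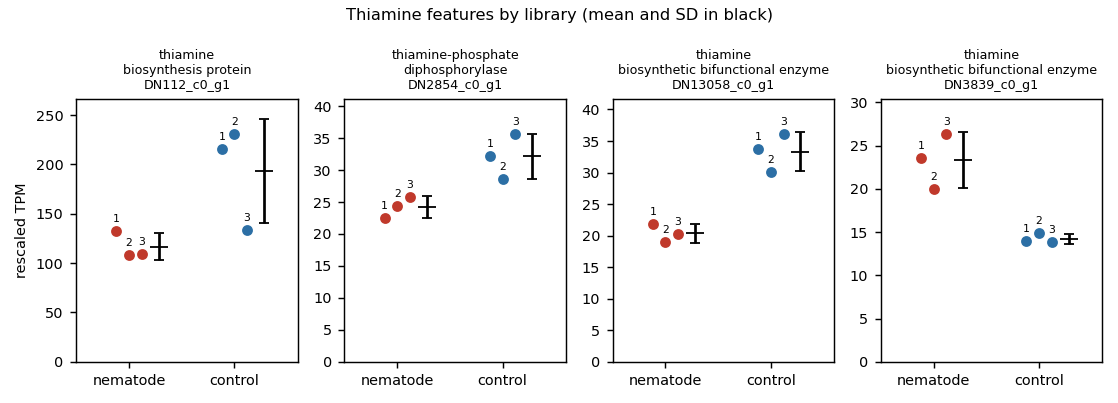
Rescaled TPM of the 4 thiamine features, 1 point per library labelled with its replicate number, with the mean and SD of each group in black. The nematode points lie below the control points in the first 3 panels and above them in the last after rescaling (log2 fold change -0.11 in TPM as deposited), where the means are 23.3 with nematodes and 14.2 in controls.

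Vitamin B6, as pyridoxal phosphate, serves aminotransferases and decarboxylases. Pyridoxamine phosphate oxidase (TRINITY_DN10038_c0_g1), which makes pyridoxal phosphate, had 451.8, 440.0 and 412.9 rescaled TPM with nematodes and 533.5, 560.6 and 653.5 in controls, without overlap and with control replicate 3 the highest. Its log2 fold change was -0.42 ± 0.11 SE (limma adjusted p = 0.228). Pyridoxine kinase (TRINITY_DN1682_c0_g1), which phosphorylates the vitamin, had 494.2, 426.0 and 519.5 rescaled TPM with nematodes and 665.9, 670.8 and 388.1 in controls. Control replicate 3 was here the lowest of all 6 libraries while the other controls were the highest, so the groups overlapped (log2 fold change -0.22 ± 0.23 SE). A pyridoxal phosphate-dependent decarboxylase (TRINITY_DN1403_c0_g1) and a pyridoxal-phosphate dependent enzyme (TRINITY_DN3500_c0_g1), which use the cofactor and do not make it by their descriptions, had log2 fold changes of -0.06 and -0.14.

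Among the purine features, the synthase of the succinocarboxamide intermediate of the ring (TRINITY_DN2454_c0_g1) had 355.9, 386.7 and 377.0 rescaled TPM with nematodes and 453.8, 483.5 and 611.3 in controls. All nematode libraries were lower, with control replicate 3 the farthest away (log2 fold change -0.46 ± 0.13 SE, limma adjusted p = 0.281). Adenylosuccinate synthetase (TRINITY_DN494_c0_g1), on the branch from IMP to AMP, had 281.6, 269.1 and 279.6 with nematodes and 341.8, 356.3 and 231.0 in controls. Its nematode libraries lay between control replicate 3 and the other controls (log2 fold change -0.14 ± 0.17 SE). Adenylate kinase (TRINITY_DN9919_c1_g3), which interconverts AMP, ADP and ATP, averaged 494.5 ± 22.7 with nematodes and 496.4 ± 92.7 in controls (SD, n = 3 each), with a 95% interval of its log2 fold change of -0.36 to 0.38. Orotate phosphoribosyltransferase (TRINITY_DN1639_c0_g2), of pyrimidine synthesis, averaged 329.1 ± 44.7 with nematodes and 359.4 ± 72.4 in controls (SD, n = 3 each). A phosphoribosyltransferase of unstated substrate (TRINITY_DN11163_c1_g1) averaged 221.4 ± 4.99 with nematodes and 220.2 ± 44.9 in controls (SD, n = 3 each), and the groups of both phosphoribosyltransferases overlapped.

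Folate carries one-carbon units for purines, thymidylate and methionine. A methylenetetrahydrofolate reductase (TRINITY_DN4305_c0_g1), which makes the folate form used for methionine, was the most abundant of the 44, with 3198, 2387 and 2812 rescaled TPM with nematodes and 3142, 3387 and 2289.9 in controls. The nematode libraries lay within the range of the controls, and the log2 fold change was -0.06 ± 0.21 SE. The other reductase of that name (TRINITY_DN20060_c0_g1) averaged 72.7 ± 7.89 with nematodes and 67.7 ± 4.47 in controls (SD, n = 3 each), a far lower level on the same length-scaled unit. Formyltetrahydrofolate deformylase (TRINITY_DN7245_c0_g1), which releases formate from folate, had 380.0, 356.5 and 357.1 with nematodes and 410.7, 434.6 and 434.1 in controls. Its groups did not overlap, with the nematode libraries lower (log2 fold change -0.23 ± 0.09 SE, limma adjusted p = 0.455). Methylenetetrahydrofolate dehydrogenase (TRINITY_DN721_c0_g1), which oxidises the carried unit, had 157.2, 163.6 and 147.8 with nematodes and 177.8, 179.0 and 169.3 in controls, again lower without overlap (log2 fold change -0.17 ± 0.09 SE). Dihydrofolate reductase (TRINITY_DN212_c0_g4), which regenerates tetrahydrofolate, had 389.6, 346.8 and 453.7 with nematodes and 535.2, 587.1 and 312.7 in controls, where control replicate 3 was the lowest library and the other controls the highest. The tetrahydrofolate ligase TRINITY_DN1647_c4_g1 and the mitochondrial folate carrier TRINITY_DN1407_c0_g1 had log2 fold changes of -0.02 and 0.03.

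Riboflavin synthase (TRINITY_DN3950_c0_g1), of the last step to the flavin vitamin, had 528.6, 394.3 and 524.3 rescaled TPM with nematodes and 675.4, 728.5 and 374.8 in controls. The nematode libraries lay between control replicate 3 and the other controls and the 95% interval of the log2 fold change was -0.89 to 0.39. The NAD features followed the same order of libraries in one case. Nicotinate phosphoribosyltransferase (TRINITY_DN122_c0_g1), a salvage enzyme, had 621.2, 507.4 and 686.3 with nematodes and 785.2, 860.1 and 453.0 in controls, and nicotinate-nucleotide pyrophosphorylase (TRINITY_DN1076_c0_g1), of synthesis from quinolinate, averaged 291.2 ± 19.3 with nematodes and 300.9 ± 49.5 in controls (SD, n = 3 each). Lipoyl synthase (TRINITY_DN7729_c0_g1), which inserts sulfur to make the lipoyl group of oxo-acid dehydrogenases, averaged 337.5 ± 34.2 with nematodes and 342.9 ± 40.9 in controls (SD, n = 3 each), and the biotin apo-protein feature TRINITY_DN2947_c0_g1 averaged 64.5 ± 3.49 with nematodes and 65.4 ± 10.01 in controls (SD, n = 3 each). Both had log2 fold changes close to 0, -0.02 ± 0.13 SE and -0.01 ± 0.14 SE.

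In the heme group, coproporphyrinogen oxidase (TRINITY_DN16450_c0_g1), of the later part of heme synthesis, had 53.4, 53.8 and 49.6 rescaled TPM with nematodes and 69.0, 64.9 and 57.6 in controls. The nematode libraries were lower without overlap (log2 fold change -0.28 ± 0.11 SE, limma adjusted p = 0.417). A heme A biosynthesis protein (TRINITY_DN4161_c1_g1), heme A being the heme of cytochrome oxidase, had 112.9, 112.8 and 111.7 with nematodes and 104.5, 105.7 and 100.1 in controls. Its groups did not overlap, with the nematode libraries higher relative to the class, by a log2 fold change of 0.12 ± 0.08 SE (limma adjusted p = 0.682), but with -0.70 in TPM as deposited. Cytochrome c heme-lyase (TRINITY_DN6304_c0_g1), which attaches heme to cytochrome c, was among the steadiest, with 190.7 ± 2.63 with nematodes and 189.4 ± 3.41 in controls (SD, n = 3 each). Siroheme synthase (TRINITY_DN1591_c0_g1), which makes the heme of sulfite and nitrite reductases, averaged 534.8 ± 51.5 with nematodes and 566.6 ± 85.5 in controls (SD, n = 3 each). Protoporphyrinogen oxidase (TRINITY_DN3669_c0_g1), of the step after coproporphyrinogen oxidase, had a log2 fold change of -0.02.

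The molybdenum cofactor serves nitrate reductase and related oxidoreductases. Its 6 features had log2 fold changes between -0.20 and 0.03, and the groups overlapped for 5 of them. The exception was the biosynthesis protein TRINITY_DN576_c0_g1, with 36.3, 34.4 and 37.0 rescaled TPM with nematodes and 41.4, 39.5 and 42.8 in controls (log2 fold change -0.20 ± 0.10 SE, limma adjusted p = 0.540). The most abundant was a molybdopterin binding domain protein (TRINITY_DN1134_c0_g3), at 258.3 ± 3.78 with nematodes and 296.4 ± 32.0 in controls (SD, n = 3 each). The synthesis proteins TRINITY_DN3796_c0_g1 and TRINITY_DN0_c0_g2 had log2 fold changes of -0.07 and 0.03. A pair of cofactor sulfurases, which add the terminal sulfur of the cofactor, were the least abundant of the group, at a mean of 37.0 (TRINITY_DN4955_c0_g2) and 11.7 (TRINITY_DN4342_c0_g1) over the 6 libraries.

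Pantothenate, the vitamin from which coenzyme A is made, was represented among the 44 features by transporters alone. They were the lowest group of the 44, with means over the 6 libraries of 1.06 to 43.5 rescaled TPM, and 7 of the 8 lay under 10. The most abundant (TRINITY_DN4112_c0_g1) had 38.0, 43.2 and 52.6 with nematodes and 48.7, 54.8 and 23.6 in controls, with overlapping groups. The feature TRINITY_DN2940_c0_g1 had 10.1, 7.66 and 6.52 with nematodes and 9.06, 7.96 and 4.20 in controls, and TRINITY_DN5698_c0_g1 had 2.67, 1.90 and 2.04 with nematodes and 4.94, 4.13 and 1.73 in controls. Both overlapped between groups. The feature TRINITY_DN18108_c0_g1 alone did not overlap, at 0.274, 1.17 and 0.705 with nematodes and 1.35, 1.24 and 2.97 in controls, and had the most negative log2 fold change of the 43, -0.72 ± 0.38 SE (limma adjusted p = 0.568). At these levels the error was larger, with a median SE of 0.34 for the 7 transporters tested against 0.16 for the 43 features. The remaining transporters tested, TRINITY_DN8409_c0_g1, TRINITY_DN10071_c0_g1 and TRINITY_DN10650_c0_g1, had log2 fold changes of 0.61, 0.27 and 0.16. By these names TRINITY_DN10071_c0_g1 shares its assembly cluster with the untested liz1 feature, and whether the 2 share sequence was not tested.

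**Figure D4:**
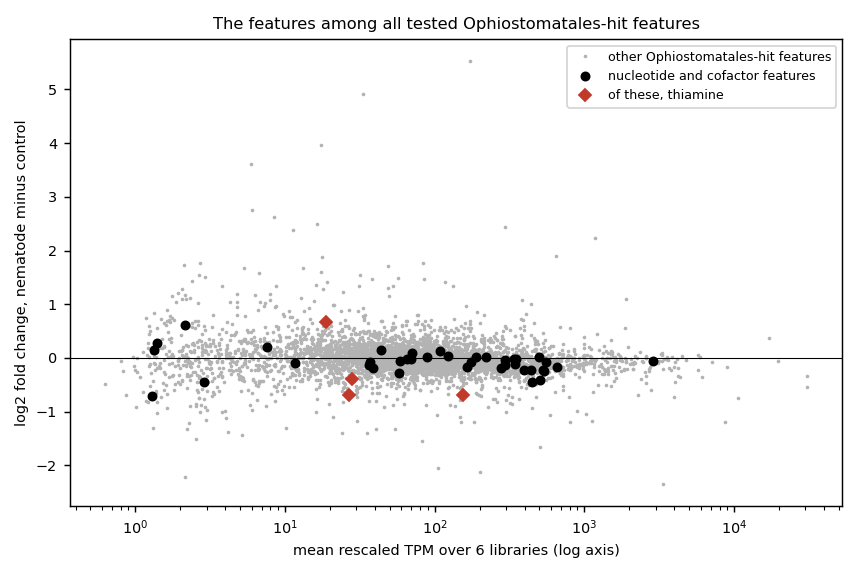
Log2 fold change (nematode minus control) against mean rescaled TPM (log axis) for the 4568 Ophiostomatales-hit features tested, with the 43 nucleotide and cofactor features in black and, among them, the 4 thiamine features as red diamonds. The 43 features lie between -0.72 and 0.67, inside the spread of the class.

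Control replicate 3 bore on these results. It was the lowest of the 3 controls for 29 of the 43 features (67.4%), against 44.6% of the class, and lay a median of 0.28 below the other controls on the log2 scale where the class lay at 0.01. Without it, 10 features fell and 1 rose with nematodes (limma adjusted p under 0.05, in place of 0 and 0), a share of 23.3% falling. The class then had 6.83% called lower and 7.38% higher, so more calls were made among all features too. The cause of the low values in that library was not tested, and nothing in the labels sets it apart.

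The largest fall without control replicate 3 was that of the thiamine biosynthesis protein (TRINITY_DN112_c0_g1), with a log2 fold change of -0.94 (limma adjusted p = 0.00555). The bifunctional enzyme TRINITY_DN13058_c0_g1 also fell (-0.62, limma adjusted p = 0.0227), and its namesake TRINITY_DN3839_c0_g1 was the single rise (0.65, limma adjusted p = 0.0318). Riboflavin synthase (TRINITY_DN3950_c0_g1), dihydrofolate reductase (TRINITY_DN212_c0_g4) and pyridoxine kinase (TRINITY_DN1682_c0_g1) also fell, with log2 fold changes of -0.55, -0.51 and -0.48. Adenylosuccinate synthetase (TRINITY_DN494_c0_g1), pyridoxamine phosphate oxidase (TRINITY_DN10038_c0_g1) and the purine ring synthase (TRINITY_DN2454_c0_g1) each fell with a log2 fold change of -0.33, and coproporphyrinogen oxidase (TRINITY_DN16450_c0_g1) and the molybdopterin binding protein (TRINITY_DN1134_c0_g3) with values of -0.35 and -0.28. Thiamine-phosphate diphosphorylase (TRINITY_DN2854_c0_g1) did not pass (-0.32, limma adjusted p = 0.0980). Leaving out any other single library gave 0 calls among the 43, and over the 6 omissions the adjusted p of TRINITY_DN13058_c0_g1 ran from 0.0227 to 0.344, that of TRINITY_DN3839_c0_g1 from 0.0318 to 0.440 and that of TRINITY_DN112_c0_g1 from 0.00555 to 0.773.

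**Figure D5:**
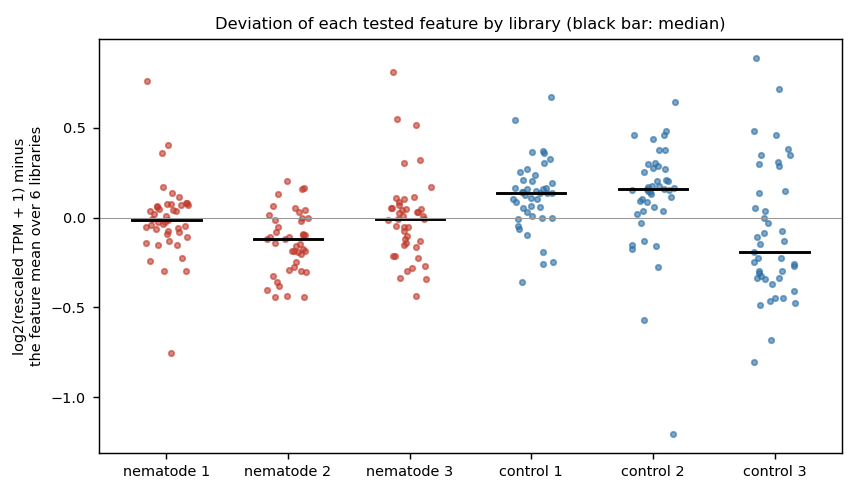
Deviation of each of the 43 tested features from its own mean over the 6 libraries, on log2(rescaled TPM + 1), for the nematode and then the control libraries, with the median as a black bar. The medians are -0.01, -0.12 and -0.01 in nematode replicates 1 to 3 and 0.13, 0.16 and -0.19 in control replicates 1 to 3, so control replicate 3 lies below every other library.

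As deposited, without rescaling, 38 of the 43 features had lower TPM with nematodes (limma adjusted p under 0.05) and 0 had higher TPM, with a median log2 fold change of -0.86. Over the class, 81% of features were lower and 0.613% higher, with a median of -0.82, so these falls were shared with the class as a whole. Only the share of the library is measured. Fewer hyphae, less RNA per hypha and dilution by other transcripts with unchanged hyphae cannot be told apart. Features with at least 1 TPM numbered 22389 to 22612 in the nematode libraries and 8339 to 9659 in the controls. The summed share of TPM of the 44 features was 0.327%, 0.420% and 0.430% in nematode replicates 1 to 3, against 0.827%, 0.837% and 0.653% in control replicates 1 to 3. Of the thiamine features, TRINITY_DN3839_c0_g1 did not pass as deposited, with a log2 fold change of -0.11 (limma adjusted p = 0.709), whereas TRINITY_DN13058_c0_g1 fell by 1.43 (limma adjusted p = 2.61e-05).

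Of 51 other Ophiostomatales-hit features of the same pathways, matched by further words such as those for ribonucleotide reductase, GTP cyclohydrolase and aminolevulinate synthase, 0 passed in either direction (limma), 4 were higher and 1 lower at an unadjusted p under 0.05 (7.84% and 1.96%, against 7.07% and 3.74% of the class), and the median log2 fold change was -0.03. Matching by words also drew in permeases, dehydrogenases and tRNA deaminases. Coenzyme A synthesis was represented by pantetheine-phosphate adenylyltransferase (TRINITY_DN19355_c0_g1) and dephospho-CoA kinase (TRINITY_DN3241_c0_g3). Their log2 fold changes were -0.17 and 0.03, with overlapping groups. Ribonucleotide reductase makes the deoxyribonucleotides of DNA from ribonucleotides. Its large chain (TRINITY_DN5790_c0_g1) had 123.7, 142.7 and 127.6 rescaled TPM with nematodes and 84.2, 87.0 and 102.4 in controls, and a 2nd feature of that name (TRINITY_DN6422_c0_g1) had 499.2, 489.8 and 572.0 with nematodes and 379.0, 422.8 and 402.7 in controls. In both, every nematode library was above every control after rescaling (in TPM as deposited the log2 fold changes were -0.30 and -0.46), with log2 fold changes of 0.52 ± 0.11 SE (limma adjusted p = 0.141) and 0.37 ± 0.11 SE (limma adjusted p = 0.266). Of the 51, 4 were higher and 2 lower without overlap after rescaling (7.84% and 3.92%, against 10.5% and 7.79% of the class). A feature described as a transcriptional regulator of the reductase (TRINITY_DN412_c0_g1) had a log2 fold change of -0.10 with overlapping groups. Aminolevulinate synthase (TRINITY_DN989_c1_g1), the entry to heme synthesis, had 116.0, 114.3 and 111.8 with nematodes and 126.9, 133.4 and 131.8 in controls, lower without overlap (limma adjusted p = 0.468). Without control replicate 3, 4 of the 51 rose and 3 fell (7.84% and 5.88%), near the 7.38% and 6.83% of the class under that omission. Both reductase features were among the rises (log2 fold changes 0.61 and 0.37). Urate oxidase of purine breakdown (TRINITY_DN505_c1_g1) was also among them at 0.47, but with all 6 libraries it had 0.04 ± 0.34 SE with overlapping groups, control replicate 3 being the highest of the 6, and in TPM as deposited it had -0.79. Lumazine synthase, the enzyme before riboflavin synthase (TRINITY_DN2802_c0_g3), was among the falls at -0.43, against -0.28 ± 0.15 SE with overlapping groups in all 6 libraries. All features of the 51 that are named here were named after their values were seen.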

How the data were processed

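The authors deposited 1 table of TPM for 6 libraries, each column of which sums to 1e+06, per the file headers and values. The authors' 2 group-mean columns were left out. Feature names are of the kind that a Trinity assembly gives; which aligner and quantifier were run is not given in the sources used here. Features were taken where the best hit ends in a species of Sporothrix, Grosmannia, Ophiostoma or Esteya. Each library was divided by its median ratio over these features, and the class total was set to average 1e+06. Values were tested as log2(rescaled TPM + 1) in R 4.3.3 with limma 3.58.1 (eBayes with trend) on features with at least 1 rescaled TPM in at least 3 of 6 libraries, nematode minus control, with no covariate. The procedure was tested on simulated data with equal noise in every library and changes larger than those of these features. That test does not bear on small changes or on an outlying library. Features named had an adjusted p under 0.05, or non-overlapping groups and a log2 fold change of at least 0.5, or were the 3 of highest mean or 2 of smallest p in their pathway group; others are named to complete a group. The features and word lists were chosen with earlier results of these data known. Alternatives changed the pseudocount, the filter, the scaling, the variance model, the block and the libraries. TPM keeps no depth, so no counting error is given.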

Additional observations from a re-analysis of the deposited data

Results flagged for a closer look

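A pattern common outside the class also appeared in same-keyword features that the comparison did not use. Of 50 features that match the same keywords but have best hits outside the 4 genera, 28 had at least 1 TPM in every nematode library and under 1 TPM in every control, and 26 of these were listed at 0 in all controls. Over all 22081 features outside the class, 60.2% showed this pattern, so the 28 of 50 (56%) were near that background. Their summed TPM as deposited was 653.9, 476.6 and 488.1 in nematode replicates 1 to 3, against 0.08, 0.08 and 0 in control replicates 1 to 3. Of the 44 Ophiostomatales-hit features, 0 showed it.

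Of the keywords with no match among the Ophiostomatales hits, thymidylate and orotidine matched features among the 28. Thymidylate synthase (TRINITY_DN20025_c0_g1, best hit in Rhizophagus), which makes the thymine nucleotide of DNA, had 47.98, 33.1 and 31.4 TPM with nematodes and was listed at 0 in the controls. The orotidine phosphate decarboxylase TRINITY_DN6518_c0_g1 (Actinomortierella), of pyrimidine synthesis, had 18.7, 11.9 and 12.1 TPM with nematodes. Among keywords that also matched the class, adenylosuccinate lyase TRINITY_DN6591_c0_g1 (Neocallimastix) had 19.5, 11.8 and 15.4 TPM with nematodes, and riboflavin kinase TRINITY_DN16190_c0_g1 (Linderina) had 12.2, 9.50 and 11.2 TPM. These 3 were also listed at 0 in the controls. These were chosen after their values were seen, and best hits do not show which organism a transcript came from.

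Another 12 of the 50 features (24%) had 0 TPM in all 3 nematode libraries and a value above 0 in at least 1 control, against 5.54% of the 22081 features outside the class. Of the 12, TRINITY_DN11824_c0_g1 alone had at least 1 TPM in every control, with 2.56, 2.50 and 1.74 TPM in control replicates 1 to 3. The summed TPM of the 12 in control replicates 1 to 3 was 70.2, 35.2 and 1.86, so control replicate 3 held the least. Examples are biotin synthase TRINITY_DN16451_c0_g1 (Colletotrichum), at 3.36, 3.78 and 0.12 TPM, and adenine phosphoribosyltransferase TRINITY_DN9134_c0_g2 (Trichoderma), at 14.7, 1.02 and 0 TPM.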

How the results depend on the processing

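The 33 features named by rule kept direction and side of the threshold under both other pseudocounts, the filter of 5 (31 of the 33 tested), no filter, TMM (trimmed mean of M values) scaling, both other variance models and the replicate block. Under equal class totals, 9 of the 33 changed sign with no call, and 2 to 8 did when 1 library was left out. Equal class totals moved the median of all class features by 0.14, to 0.11, and that of the 43 features to 0.07. With that scaling 48 class features were called higher and 0 lower. Of the 43, 4 were then lower and 3 higher without overlap (9.30% and 6.98%, against 2.32% and 20.5% of the class). TPM as deposited called 38 of the 43, 43 of the 51 other pathway features and 3701 class features lower. It gave the 43 a median of -0.86, with 0 higher and 36 lower without overlap (83.7% lower, against 80.1% of the class). It reversed TRINITY_DN0_c0_g2 (-0.79), TRINITY_DN11163_c1_g1 (-0.80), TRINITY_DN4112_c0_g1 (-0.65), TRINITY_DN4161_c1_g1 (-0.70), TRINITY_DN6304_c0_g1 (-0.82) and TRINITY_DN9919_c1_g3 (-0.82), all uncalled after rescaling; TRINITY_DN3839_c0_g1 (-0.11) and TRINITY_DN2940_c0_g1 (-0.48) also changed sign, with no call in either scaling, which makes 8 of the 33. The robust variance model called 1 class feature lower. The replicate block gave 12 class features higher and 0 lower and changed no call among the 43. The deviations of same-numbered libraries had correlations of 0.15, -0.43 and -0.28. Taken from means of 3 libraries a group, with control replicate 3 apart, these values cannot tell whether the numbers pair libraries.

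Over the 6 omissions, 0 to 1 of the 43 features were higher and 0 to 10 lower, 0 to 4 of the 51 other pathway features higher and 0 to 3 lower, 9 to 337 class features higher and 0 to 312 lower, and 10 to 27 of the 43 were lower without overlap (the upper ends come from leaving out control replicate 3, where 62.8% of the 43 were lower in this way, against 29.6% of the class). With scaling and filter computed again without that library, an alternative chosen after seeing the data, 10 of the 43 were lower and 1 higher, the same 11 features, with 24 lower without overlap (55.8%, against 28.5% of the class), 349 class features higher and 280 lower, and 4 and 3 of the 51. The unknown read depth and 3 libraries a group limit what small changes can be detected, most of all for the transporters near 1 rescaled TPM.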
